A study of Mus musculus with 12 samples.

Results

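Protein kinase A (PKA) subunits and phosphodiesterase 4 enzymes were read in M1-activated bone marrow macrophages (BM-Mɸs) as 9 genes, chosen by gene symbol: 2 catalytic subunits (Prkaca, Prkacb), 4 regulatory subunits (Prkar1a, Prkar1b, Prkar2a, Prkar2b) and 3 phosphodiesterases (Pde4a, Pde4b, Pde4d). They are 9 of 22243 genes, with 13 of the 28808 transcripts measured. The 12 libraries came from C57Bl/6 mice of 6 litters, with 1 LysMCre/ErbB4-floxed mouse (ErbB4 myeKO) and 1 littermate of the ErbB4 FF group in each, so that the comparison is between littermates. LysMCre drives recombination in the myeloid lineage, neutrophils included, and is active in macrophages. All 12 cultures were grown with M-CSF from CMG14-12 conditioned medium and then received 100 U/mL IFN-γ for 16 h and 100 ng/mL LPS for 6 h, so no unstimulated or M2 state was measured here, and age and sex are not on the labels.

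PKA is the main receptor of cyclic AMP (cAMP) in most cells. A pair of regulatory subunits holds a pair of catalytic subunits inactive, and cAMP made by adenylyl cyclases binds the regulatory subunits and frees the catalytic ones, which phosphorylate many proteins, the transcription factor CREB among them. PDE4 enzymes hydrolyse cAMP and so end the signal, and in macrophages a rise in cAMP is known to restrain the output of tumor necrosis factor after LPS. Type I regulatory subunits are largely cytosolic, whereas type II subunits are mostly held at membranes and organelles by A-kinase anchoring proteins.

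The family was drawn up with results of the genotype comparison known, in which the rise of the transcript Prkar2b-202, on log2(TPM + 0.5), was the largest of 88 transcripts (0.873% of those tested) at an unadjusted limma p under 0.01. Differences between genotypes are therefore given for the 9 genes as a description, with no test. Their levels and order were not part of the rule. Levels are in TPM (transcript abundance scaled so that all transcripts of a library sum to the same total), which are scaled for transcript length and so can be set side by side. The table lists principal transcripts alone, 13 of the 73 annotated for these genes, so a level is that of the listed transcripts and each gene may miss a different part. A log2 ratio is the mean over 6 litters of the difference of log2(TPM + 0.5) between an ErbB4 myeKO library and its ErbB4 FF littermate, and it understates the change of genes near 0.

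Erbb4 itself did not check the labels, since it averaged 0.583 ± 0.242 TPM (SD over 6 libraries) under the label ErbB4 myeKO and 0.450 ± 0.132 TPM under ErbB4 FF, and TPM of a whole transcript cannot show the loss of a floxed exon. Lyz2, the lysozyme gene whose locus carries LysMCre, was at 4272, 4395, 3116, 4491, 7563 and 7997 TPM in litters 1 to 6 of ErbB4 myeKO and at 8370, 7823, 6910, 10336, 13257 and 2964 TPM in ErbB4 FF. It was lower under the label ErbB4 myeKO in litters 1 to 5, with log2 ratios from -1.20 to -0.81, and higher in litter 6, with a ratio of 1.43. Litter 6 thus went against the other 5, the reason was not tested, and ErbB4 myeKO and ErbB4 FF stand throughout for libraries with these labels. Without litter 6 the log2 ratios given below were -0.30 for Prkaca, 0.01 for Prkacb, 0.04 for Prkar1a, 0.11 for Prkar2a, 0.33 for Prkar2b, 0.25 for Pde4a and 0.03 for Pde4b, and those of Prkar2b-201 and Prkar2b-202 were -0.70 and 2.27.

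All 10 macrophage markers were over 1 TPM on average. Their summed level was 8562 to 12758 TPM (median 10411) in ErbB4 myeKO and 7542 to 16281 TPM (median 14160) in ErbB4 FF, lower in ErbB4 myeKO in litters 1 to 5 and higher in litter 6. Lyz2 was the most abundant of them, at 6791 TPM on average over the 12 libraries. Its own values, given above, went the same way in each litter, so the sum cannot be read as macrophage content apart from Lyz2. Adgre1, which encodes the macrophage marker F4/80, had a ratio of 0.01 and Cd68 one of -0.12, and the part of these markers in the ratios of the 9 genes was not tested. The summed erythroid markers stayed at 1.11 TPM or below and the lymphocyte markers at 3.74 TPM or below, but 12 neutrophil markers summed to 140 to 1122 TPM, mostly from Lcn2, which macrophages also make after LPS. Litters 5 and 6 stood apart: 4 Y-linked genes summed to between 0.202 and 0.406 TPM in their 4 libraries and to between 36.1 and 49.2 TPM in the 8 others, and littermates were alike in this. The transcripts in the table held 71.4% and 74.7% of all TPM in litter 5 and 59.0% to 64.9% in the other litters.

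The 9 genes spanned from over 100 TPM to 0. Prkar1a had a mean of 131 ± 19.1 TPM (SD over 12 libraries) and Pde4b 110 ± 39.5 TPM, followed by Prkaca at 13.1 ± 3.93, Prkacb at 11.2 ± 1.71, Prkar2b at 8.30 ± 4.65, Prkar2a at 3.41 ± 0.915 and Pde4a at 1.48 ± 0.653 TPM. Pde4a was the lowest of the 7 members that averaged 1 TPM or more, the level a gene needed to enter the fit across genes, and Prkar1b, at 0.0778 TPM, was the nearest of the 2 below it. Among the listed transcripts, those of the regulatory subunits were mostly Prkar1a, those of the catalytic subunits were divided between both genes, and those of PDE4 were mostly Pde4b.

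**Figure D1:**
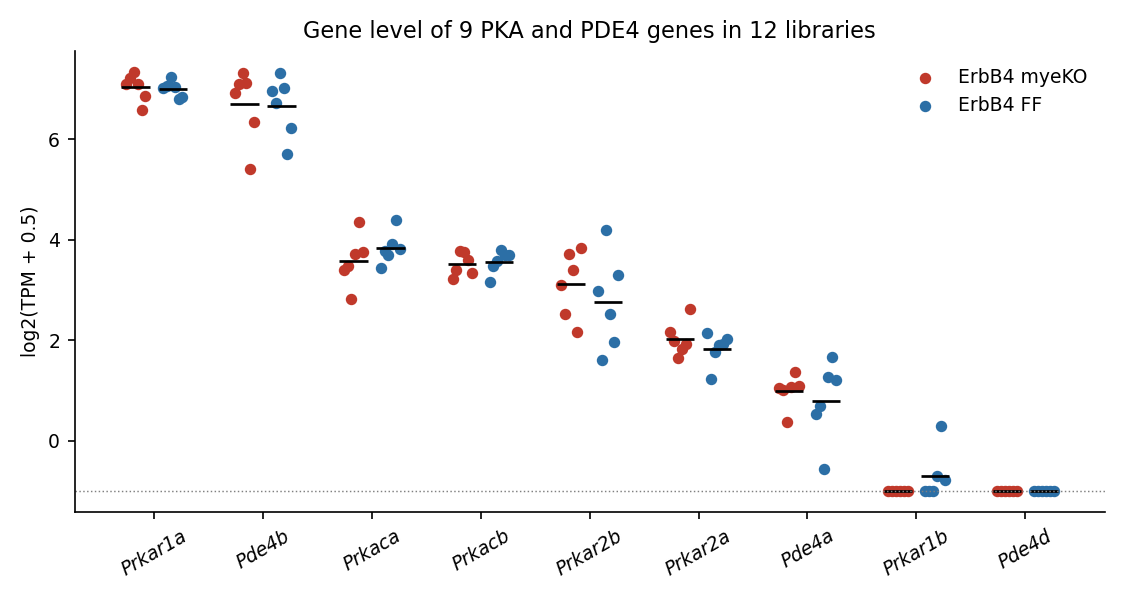
Level of each of the 9 genes as log2(TPM + 0.5) in 6 ErbB4 myeKO (red) and 6 ErbB4 FF (blue) libraries, ordered by mean, with a bar at the group mean and a dotted line at 0 TPM. Prkar1a and Pde4b lie above the other genes in every library, and the 2 genotypes overlap for all 9 genes.

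The order was tested between neighbours by an exact two-sided permutation test (sign flips over 6 litters, each the mean of its 2 libraries), whose smallest p is 0.0312, with Benjamini-Hochberg adjustment over 8 pairs. Pde4b was above Prkaca by 2.96 ± 1.01 on the log2 scale (SD, 6 of 6 litters, exact p = 0.0312, adjusted p = 0.0625), and the steps from Prkar2b to Prkar2a (1.01 ± 0.727), from Prkar2a to Pde4a (1.04 ± 0.511) and from Pde4a to Prkar1b (1.74 ± 0.424) reached the same exact p in 6 of 6 litters. The size of the step to Prkar1b follows the pseudocount, as Prkar1b was at 0 in all 6 ErbB4 myeKO and in 3 ErbB4 FF libraries. The order was taken from the mean TPM of the same 12 libraries, so the direction of each step was chosen from the values tested. No step passed an adjusted p of 0.05, which 6 litters allow only where at least 6 of the 8 pairs reach the smallest p. Neighbours that did not separate beyond the spread of the litters were Prkar1a and Pde4b (0.34 ± 0.443, 5 of 6 litters, exact p = 0.0938, adjusted p = 0.15), Prkaca and Prkacb (0.18 ± 0.372, 5 of 6 litters, exact p = 0.281, adjusted p = 0.281) and Prkacb and Prkar2b (0.59 ± 0.773, 4 of 6 litters, exact p = 0.188, adjusted p = 0.25). Prkar1b and Pde4d could not be separated by this test, as both were at 0 in 3 litters, which leaves 0.25 as the smallest exact p.

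The catalytic subunits carry out the phosphorylation. Prkaca (Prkaca-201, chr8:83972993-83996443, GRCm38) was at 10.1, 10.6, 6.60, 12.6, 19.8 and 13.03 TPM in litters 1 to 6 of ErbB4 myeKO, and at 10.4, 13.3, 12.5, 14.5, 20.6 and 13.7 TPM in their ErbB4 FF littermates. Each ErbB4 myeKO library was below its littermate, the groups overlapped, and the mean log2 ratio was -0.26 ± 0.318 (SD; standard error 0.125 in limma). Among all genes tested 2.31% were lower in 6 of 6 litters, and most of the Prkaca difference came from litter 3, without which the mean was -0.14. Prkacb (Prkacb-202, chr3:146729574-146812960) lay in a narrow range, from 8.80 to 13.2 TPM (median 10.8) in ErbB4 myeKO and from 8.43 to 13.3 TPM (median 12.0) in ErbB4 FF, with a log2 ratio of -0.05 ± 0.183. Prkaca held 53.2% ± 7.56 (SD over 12 libraries) of the summed catalytic TPM. The coding sequences of this pair were 80.2% identical over 1053 aligned bases, yet they shared only 4 stretches of 31 bases, the length that kallisto matches by default, and 48.4% of such stretches of Prkaca-201 and 7.41% of those of Prkacb-202 occurred in no other annotated transcript. For Prkacb-202 the remainder lay in other transcripts of the same gene.

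Prkar1a encodes the type Iα regulatory subunit. Its level was 95.1 to 162 TPM (median 137) in ErbB4 myeKO and 111 to 152 TPM (median 131) in ErbB4 FF, with a log2 ratio of 0.03 ± 0.133 and with 5 of 6 litters higher in ErbB4 myeKO. A difference of this size is smaller than its spread between litters. Prkar1a made up 91.8% ± 2.99 of the summed TPM of the regulatory subunits, Prkar2b 5.67% ± 2.74 and Prkar2a 2.46% ± 0.798, and the regulatory sum was 6.13 ± 1.77 times the catalytic sum (range 3.26 to 8.98). That quotient averaged 6.60 ± 2.03 in ErbB4 myeKO and 5.65 ± 1.49 in ErbB4 FF. Between littermates it was higher in ErbB4 myeKO in every litter but litter 5, which had 3.26 in ErbB4 myeKO and 3.58 in ErbB4 FF. It is a quotient of transcripts, not of protein, and its difference was not tested.

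Prkar1a has a pair of principal transcripts in the table with the same coding sequence of 1143 bases and starts 1516 bases apart. Prkar1a-201 (chr11:109650921-109669656) held 95.5% to 99.1% of the gene's TPM (median 96.9%), and Prkar1a-203 (chr11:109649405-109669656) was at 1.23 to 5.95 TPM. Only 4.57% of the stretches of 31 bases of Prkar1a-201 and 4.71% of those of Prkar1a-203 occurred in no other transcript, so this division rests on a small part of either sequence. The RefSeq promoter windows (250 bases before to 50 after a start, GRCm38.p6, plus strand, shown 5′ to 3′) nearest to these transcripts are printed because they show how the highest-expressed regulatory subunit differs at its starts. Capitals mark TGACGTCA, the full cAMP response element to which CREB binds, and its core TGACG, searched on both strands, so that the reverse of the core reads CGTCA and TGACGTCA holds the core on either strand.
Prkar1a-201 start, chr11:109650699-109650998: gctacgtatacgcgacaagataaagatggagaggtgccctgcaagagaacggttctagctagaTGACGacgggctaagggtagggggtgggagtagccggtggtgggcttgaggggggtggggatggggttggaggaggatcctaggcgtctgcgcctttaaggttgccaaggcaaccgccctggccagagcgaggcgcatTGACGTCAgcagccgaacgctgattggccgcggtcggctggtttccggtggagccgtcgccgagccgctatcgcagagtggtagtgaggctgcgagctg
Prkar1a-203 start, chr11:109649113-109649412: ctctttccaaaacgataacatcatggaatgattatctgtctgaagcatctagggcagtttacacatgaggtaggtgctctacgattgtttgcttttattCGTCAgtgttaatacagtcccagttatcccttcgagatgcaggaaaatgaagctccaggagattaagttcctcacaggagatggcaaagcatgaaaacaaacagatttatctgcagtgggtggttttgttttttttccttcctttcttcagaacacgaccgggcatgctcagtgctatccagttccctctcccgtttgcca

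The window at Prkar1a-201 has 1 full element and 3 matches to the core, of which 1 lies apart from the full element, whereas the window at Prkar1a-203 has 1 core match. The full element was found in 1 of the 9 genes, in 2 overlapping windows at Prkar1a-201, and in 588 of 32851 windows of all genes (1.79%). The core was found in 7 of the 9 genes, in 9 of their 27 windows, and in 20.8% of all windows. These are matches of letters, and no binding was measured.

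Prkar1b, the type Iβ subunit known mostly from neurons, was listed at 0 in all 6 ErbB4 myeKO libraries and in 3 of the ErbB4 FF libraries. The other ErbB4 FF libraries had 0.115, 0.733 and 0.0851 TPM in litters 4, 5 and 6. Almost all of it was assigned to Prkar1b-203 rather than Prkar1b-201, and no fold is given against a group at 0.

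Prkar2a, the type IIα subunit (Prkar2a-201 on chr9), was at 2.65 to 5.69 TPM (median 3.37) in ErbB4 myeKO and 1.86 to 3.91 TPM (median 3.28) in ErbB4 FF. It was higher in ErbB4 myeKO by 0.75 and 0.61 on the log2 scale in litters 2 and 6 and lay within 0.12 of its littermate in the other litters, for a mean of 0.19 ± 0.384. The genes most like it over the 12 libraries were Acta2 (r = 0.94), Tagln (r = 0.92) and Ccn2 (r = 0.91), known from smooth muscle and fibroblasts and named after their values were seen. The 12 stromal and adipocyte markers, 7 of them over 1 TPM on average, summed to 24.3 to 147 TPM in ErbB4 myeKO and to 23.9 to 135 TPM in ErbB4 FF. They were higher in ErbB4 myeKO in litters 2 (61.2 and 23.9 TPM) and 6 (147 and 79.6 TPM), where Prkar2a was, and also in litters 1 and 5, where Prkar2a hardly differed, and their part in the Prkar2a values was not tested.

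Prkar2b, the type IIβ subunit best known from fat and brain, is the member whose transcripts are described most closely. Its summed level was 8.07, 5.29, 12.7, 10.0, 3.99 and 13.8 TPM in litters 1 to 6 of ErbB4 myeKO and 7.39, 2.56, 17.8, 5.23, 3.41 and 9.35 TPM in ErbB4 FF. The ErbB4 myeKO library was the higher one in every litter but litter 3, the groups overlapped, and the log2 ratio was 0.36 ± 0.525 (standard error 0.191). Its coding sequence was 72.6% identical to that of Prkar2a, with 6 shared stretches of 31 bases.

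The table has a pair of Prkar2b transcripts that encode the same protein from 1248 coding bases and differ at their ends. Prkar2b-201 (1657 bases, 12 exons) splices out an intron of 1660 bases that lies after the stop codon (chr12:31958722-31960381, GRCm38, minus strand), which leaves a 3′ untranslated region of 253 bases. Prkar2b-202 (3378 bases, 11 exons) keeps this stretch, so that its 3′ untranslated region has 1913 bases, and it starts 61 bases further upstream. The bases across this point are printed in the direction of transcription because they tell the transcripts apart, with capitals for the bases that follow the exon end of Prkar2b-201.
Prkar2b-201, joined last exons: ctgcatgaagcaaaaAGTTCAGAAGCTCTG
Prkar2b-202, continuous last exon (chr12:31960367-31960396): ctgcatgaagcaaaaGTATGGGGAAGAAGA
Prkar2b-202, first 30 bases (chr12:32061267-32061296, upstream of the start of Prkar2b-201): caggagcgggaggagctggagatgctgcca

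**Figure D2:**
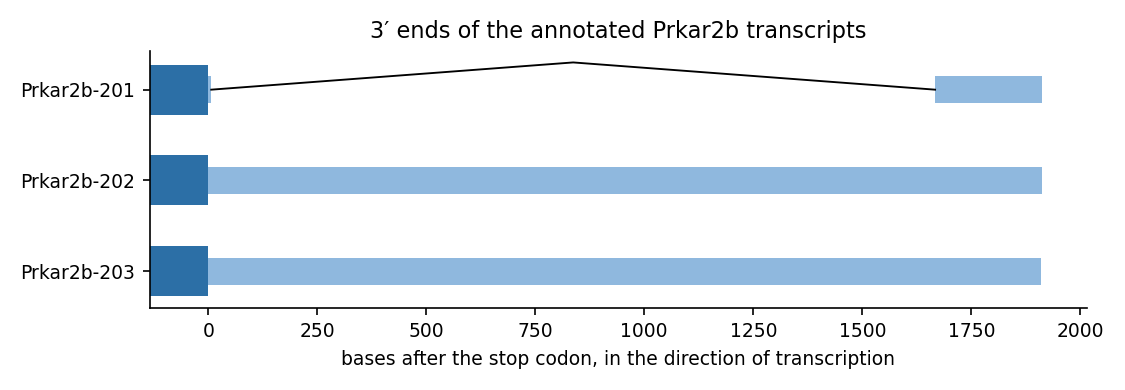
Exons at the 3′ end of the 3 annotated Prkar2b transcripts, drawn to scale by distance from the stop codon in bases, with coding sequence dark and tall, untranslated sequence pale and an intron as an angled line. Prkar2b-201 alone lacks the 1660 bases; Prkar2b-203 is not in the table.

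In ErbB4 myeKO, Prkar2b-202 was at 3.02, 1.18, 0.0607, 5.42, 3.99 and 3.803 TPM in litters 1 to 6. In ErbB4 FF it was at or next to 0 in all 6 libraries, with a highest value of 0.0315 TPM in litter 5. The groups did not overlap, and the library of litter 3 was nearest to ErbB4 FF. The log2 ratio was 2.41 ± 1.26 (SD; standard error 0.482, 6 of 6 litters higher), and with a pseudocount of 0.1 in place of 0.5 it was 4.22, so its size follows the pseudocount and is no bound. Of all 10085 transcripts tested, 0.0397% were higher in ErbB4 myeKO with no overlap and 2.19% were higher in 6 of 6 litters; since this contrast chose the family, nothing is read from these shares.

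Prkar2b-201 went the other way on average. It was at 5.05, 4.11, 12.6, 4.60, 0 and 9.96 TPM in litters 1 to 6 of ErbB4 myeKO and at 7.39, 2.56, 17.8, 5.23, 3.38 and 9.35 TPM in ErbB4 FF, a log2 ratio of -0.57 ± 1.24 with 4 of 6 litters lower. In litter 5 of ErbB4 myeKO all Prkar2b TPM was assigned to Prkar2b-202, and without this litter the ratio was -0.09. The size of the mean follows the pseudocount here too, at -0.93 with 0.1. The share of Prkar2b-202 in the gene was 37.4%, 22.2%, 0.478%, 54.1%, 100% and 27.6% in litters 1 to 6 of ErbB4 myeKO and at most 0.923% in ErbB4 FF. The direction given for Prkar2b therefore depends on what is counted: the sum of both transcripts was higher in ErbB4 myeKO by 0.36, and the more abundant transcript alone was lower by the -0.57 above.

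**Figure D3:**
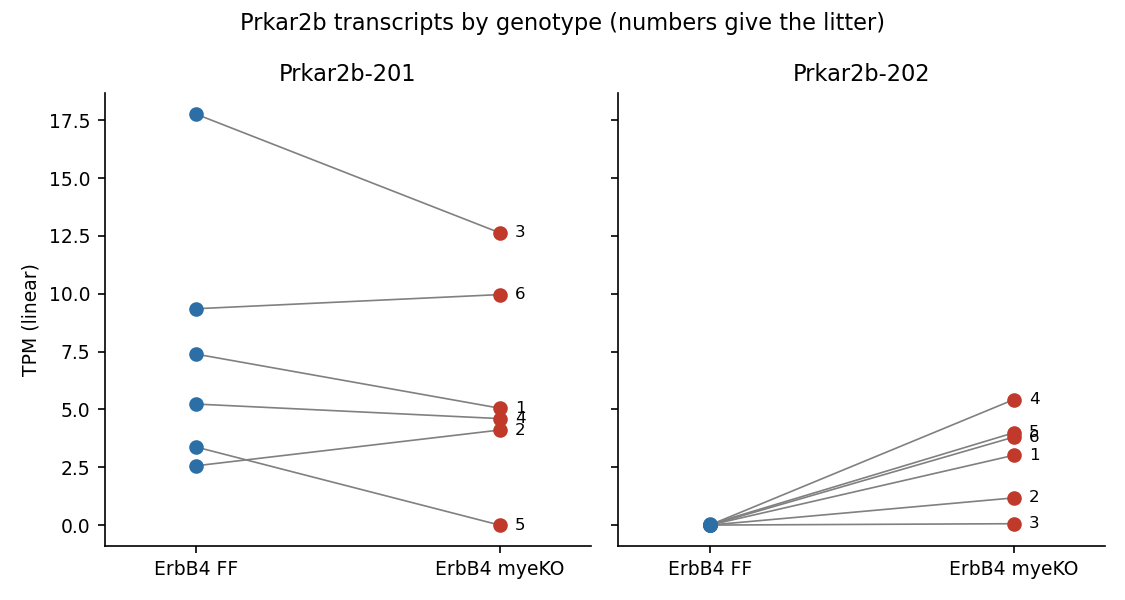
TPM of Prkar2b-201 (left) and Prkar2b-202 (right) in each ErbB4 FF library (blue) and its ErbB4 myeKO littermate (red), joined by a line and numbered by litter. Prkar2b-202 is next to 0 in all ErbB4 FF libraries and reaches 5.42 TPM in ErbB4 myeKO, whereas Prkar2b-201 overlaps between the groups.

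How firmly these values stand can be read from the sequence behind them. Of the stretches of 31 bases, 98.2% of those of Prkar2b-201 and 47.7% of those of Prkar2b-202 occur in the other transcript of the pair, and only 30 are exclusive to Prkar2b-201 and 61 to Prkar2b-202. Another annotated transcript, Prkar2b-203 (3133 bases, another first exon, the same long last exon), was not analysed here, and it shares 84.5% of the stretches of Prkar2b-202, so reads in the long 3′ end cannot be given to Prkar2b-202 apart from Prkar2b-203 except at the 5′ end. By the relation of the authors' mean normalized counts to TPM and length, 1 TPM of Prkar2b-202 stood for about 20.4 normalized estimated counts, which makes its mean 29.7 and its highest value 111 such counts. The part that retained or unspliced RNA had in these reads was not tested.

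Of all genes tested, those whose log2 level was most like that of Prkar2b over the 12 libraries were Atp6v1h (r = 0.93), a subunit of the vacuolar proton pump, Slc7a8 (r = 0.93), an amino acid transporter, and Cxcl3 (r = 0.91), a chemokine that draws neutrophils. These correlations are a description over libraries that share litters. Prkar2b is also abundant in platelets, and 12 megakaryocyte and platelet markers summed to 7.49 and 4.97 TPM in litter 2, where the ErbB4 FF library had the lowest Prkar2b level, and to between 21.0 and 47.3 TPM in the other litters, mostly from Pf4, which macrophages also express. In litter 5, where Prkar2b was also low (3.99 and 3.41 TPM), they summed to 32.5 and 43.9 TPM. Only 1 of the 12 was over 1 TPM on average, and the part of such cells in the Prkar2b values was not tested. In bulk RNA, fewer cells of a type and less RNA per cell cannot be told apart.

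Pde4b, the PDE4 gene that LPS is known to induce in macrophages, held 98.2% ± 1.54 of the listed PDE4 TPM. It was measured as 1 of its 13 annotated transcripts (Pde4b-207) at 121, 136, 158, 139, 41.8 and 80.5 TPM in litters 1 to 6 of ErbB4 myeKO and at 124, 105, 159, 129, 51.9 and 74.2 TPM in ErbB4 FF. Of the stretches of 31 bases of Pde4b-207, 32.7% occurred in no other annotated transcript. Neither an induction by LPS nor the other Pde4b transcripts were measured here, so the level is the TPM assigned to Pde4b-207. The ErbB4 myeKO library was higher in 3 litters and lower in 3, and the log2 ratio was 0.04 ± 0.224. Pde4a (Pde4a-202) was at 0.790 to 2.07 TPM (median 1.58) in ErbB4 myeKO and 0.175 to 2.67 TPM (median 1.46) in ErbB4 FF, with a ratio of 0.19 ± 0.483. It was higher in ErbB4 myeKO in litters 1 to 3 and lower in litters 4 to 6, and without litter 3 the mean was 0.04. Pde4d was listed at 0 in all 12 libraries, for the 2 of its 20 annotated transcripts that the table has. One of these, Pde4d-220, has no stretch of 31 bases of its own and the other, Pde4d-209, has 29, so the listed 0 covers these transcripts and not the gene.

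**Figure D4:**
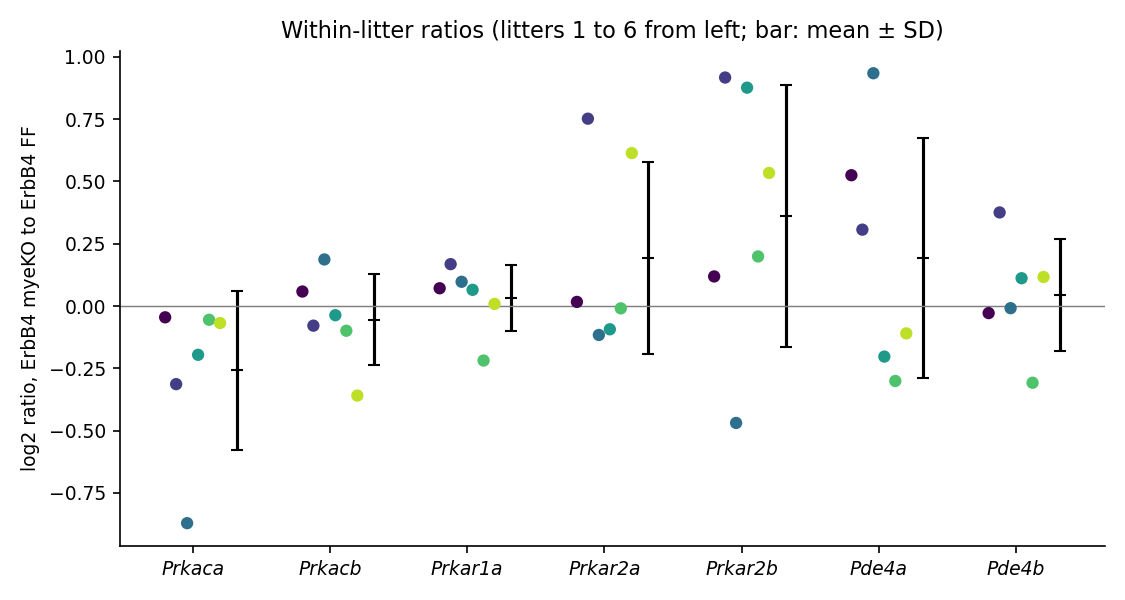
Log2 ratio of ErbB4 myeKO to ErbB4 FF, on log2(TPM + 0.5), for the 7 genes that averaged 1 TPM or more, with a point per litter (1 to 6 from left) and a bar for mean ± SD. Prkaca is below 0 in all 6 litters, and the other genes have litters on both sides of 0.

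Over the 7 members in the fit, 5 log2 ratios were above 0 and 2 below, with a median of 0.04, against 4372 above, 4408 below and a median of -0.000679 over all 8780 genes. As a count alone, 0 members lay under an adjusted limma p of 0.05, as did 0% of all genes, and 0 under an unadjusted p of 0.05, as did 8.21% of all genes (3.83% higher and 4.38% lower in ErbB4 myeKO). Nothing is read from these counts, since this contrast chose the family. No member had groups without overlap at the gene level, as 0.0456% of all genes did.

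Pde4b spread widely between litters. The SD of its 6 litter means was 0.65 on the log2 scale, 2.89 times the SD of its ratios within litters (0.22). The latter is a spread of ratios and not the genotype difference, whose mean was 0.04. The medians over all genes were 0.41 for litter means and 0.34 for ratios. Prkar1a had SDs of 0.22 for litter means and 0.13 for ratios, both below these medians. Pde4b was at 41.8 to 80.5 TPM in the 4 libraries of litters 5 and 6 and at 105 to 159 TPM in the 8 libraries of litters 1 to 4, with means of 62.1 and 134 TPM and no overlap. Prkar1a was at 95.1 to 115 TPM in litters 5 and 6 and at 130 to 162 TPM in litters 1 to 4, with means of 109 and 141 TPM and again no overlap. The gap was there in both genotypes. The 12 neutrophil markers were split the same way in reverse, at 597 to 1122 TPM in litters 5 and 6 and 140 to 583 TPM in litters 1 to 4, and their part in these levels was not tested. Prkaca had the reverse order of means, at 16.8 TPM in litters 5 and 6 and 11.3 TPM in litters 1 to 4, but with overlap. The regulatory sum was 6.98 ± 1.33 times the catalytic sum in litters 1 to 4 and 4.43 ± 1.25 times in litters 5 and 6. Of all genes tested, 8.59% lay higher in every library of litters 1 to 4 than in any of litters 5 and 6. These litters were set apart after their values were seen, as those with Y-linked genes near 0, so no test is given, and sex, litter and culture cannot be told apart.

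**Figure D5:**
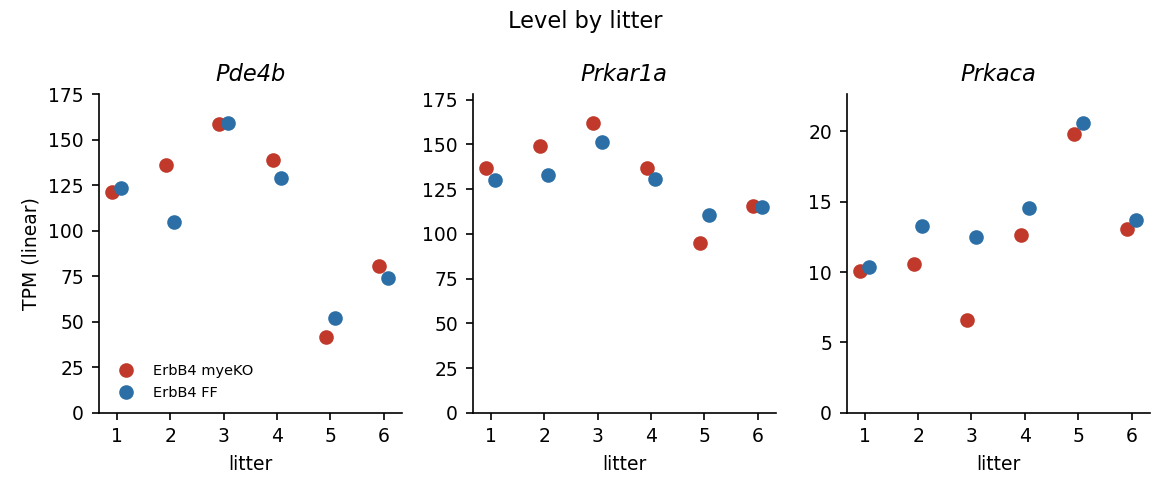
TPM of Pde4b, Prkar1a and Prkaca by litter in ErbB4 myeKO (red) and ErbB4 FF (blue), on linear axes from 0. Pde4b and Prkar1a are lowest in litters 5 and 6 in both genotypes, and Prkaca is highest in litter 5.

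Pde4b and Prkar1a moved together over the 12 libraries (r = 0.95, and 0.96 over 6 litter means), and Prkaca moved against both (r = -0.79 with Pde4b and -0.82 with Prkar1a). For the 6 ratios within litters r was 0.85 between Pde4b and Prkar1a, and -0.15 and -0.44 between Prkaca and either of them, so the opposite course of Prkaca lay mainly between litters. The TPM of a library share 1 total and the 12 libraries share 6 litters, so no p is given. The genes most like Pde4b were Vps54 (r = 0.99), part of a complex that tethers vesicles to the Golgi, Frs2 (r = 0.99), a docking protein of growth factor receptors, and Spty2d1 (r = 0.98), a histone chaperone. Those most like Prkar1a were Purb (r = 0.98), a nucleic acid binding repressor, Sfpq (r = 0.98), a splicing factor, and Ccdc50 (r = 0.97), a ubiquitin-binding protein.

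Around these members, 74 other genes of the cAMP pathway were listed, with earlier results of these data known, and 40 were in the fit. In limma none of the 40 passed an adjusted p of 0.05 (smallest adjusted p = 0.603), 2 were higher and 3 lower in ErbB4 myeKO at an unadjusted p under 0.05, beside 3.83% and 4.38% of all genes, and without the litter block 0 of the 40 were at that p. Their median log2 ratio was -0.02. Of the genes that start the signal, the G protein subunits Gnai2, which inhibits adenylyl cyclases, and Gnas, which activates them, were at 354 and 181 TPM on average. Gnai2 was at 334 ± 53.4 TPM in ErbB4 myeKO and 375 ± 56.1 TPM in ErbB4 FF, a log2 ratio of -0.17 (limma standard error 0.0579) with 6 of 6 litters lower. The prostaglandin E2 receptor gene Ptger2 (ratio 0.36, 6 of 6 litters higher) was also at that unadjusted p, and is named after its values were seen. Adcy7 was the only one of 10 adenylyl cyclases over the filter, at 12.6 TPM, and the next, Adcy4, was at 0.319 TPM.

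The inhibitors of the catalytic subunits were led by Pkig at 18.1 and Pkib at 13.1 TPM, beside 13.1 and 11.2 TPM for Prkaca and Prkacb. Of 15 anchoring proteins 8 were in the fit, with Ezr, the membrane and actin linker ezrin, at 69.1 TPM and Akap8, a nuclear anchor, at 14.5 TPM, and 6 of the 8 had a ratio above 0. Of 13 other cAMP phosphodiesterases 4 were in the fit, and Pde1b, which calcium and calmodulin activate, was at 31.01 TPM and Pde8a at 11.7 TPM, both below Pde4b. The cAMP effectors other than PKA (Rapgef3, Rapgef4, Popdc2, Popdc3 and Bves) were all near 0, the highest being Rapgef4 at 0.0248 TPM and Popdc2 at 0.0152 TPM. In the CREB family Atf1 was at 18.9 and the coactivator Ep300 at 13.7 TPM.

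Of 12 CREB target genes, 11 were in the fit, and 4 had a ratio above 0 and 7 below, with a median of -0.14. Junb, a subunit of the AP-1 transcription factor, was at 301 TPM with a ratio of -0.09. Dusp1, a phosphatase that ends MAP kinase signalling, was at 218 ± 87.4 TPM in ErbB4 myeKO and 283 ± 108 TPM in ErbB4 FF, a log2 ratio of -0.39 (standard error 0.106, 6 of 6 litters lower) with an unadjusted limma p of 0.00734 and an adjusted p of 0.603. Fos, another AP-1 subunit, was at 6.37 ± 1.67 and 9.84 ± 4.198 TPM, a ratio of -0.54 (standard error 0.148, 5 of 6 litters lower) with an unadjusted limma p of 0.00745 and the same adjusted p. Both genes respond to many signals besides cAMP, and neither passed the threshold. Targets with ratios above 0 included the nuclear receptor gene Nr4a3 (0.59, 5 of 6 litters higher) and Areg, which encodes amphiregulin (0.48, 6 of 6 litters higher). Both were named after their values were seen, and neither was at an unadjusted limma p under 0.05. Nr4a3 was at 1.66 ± 1.27 TPM in ErbB4 myeKO and 0.909 ± 0.898 TPM in ErbB4 FF. Areg was at 2.41 ± 4.84 and 1.39 ± 2.90 TPM, with single libraries from 0 to 12.3 TPM. Each gene had a library at 0 TPM, so the size of these ratios depends on the pseudocount.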

How the data were processed

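Single-end reads of 75 bp came from 12 cultures of M1-activated BM-Mɸs, 6 for each genotype, with genotype and litter taken from the labels. The authors pseudoaligned the reads with kallisto to the mouse transcriptome (mm10 per the labels) and deposited TPM of principal transcripts (by the APPRIS annotation) only. They also deposited a sleuth column of mean normalized counts on a natural log scale, used here only to relate TPM to counts (6.03 normalized counts per TPM and kb, the median over 7834 transcripts), as the table has no depth. The authors' own fold changes, p-values and q-values in the table were not used. Tool versions are not given in the sources used here.

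The table has 29213 lines, 405 of which repeat a transcript and were counted once. GENCODE M21 (GRCm38) held all 28808 transcripts and mended 35 symbols that had become dates. The TPM of a gene's transcripts were summed, and limma 3.58.1 (R 4.3.3; lmFit, eBayes with trend) was run on log2(TPM + 0.5) for the 8780 genes that averaged 1 TPM or more, and likewise for 10085 transcripts. The model had genotype and a litter block, with Benjamini-Hochberg adjustment over all genes. Littermates correlated at 0.273 to 0.774 across genes after the group means had been removed, and the pairing comes from the litter number of the labels. The fit was tested on simulated data. Sex is not on the labels and was not a covariate.

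Members and lists were chosen with earlier results of these data known. Genes named are all members, the 2 genes with the highest mean of each pathway subgroup and any with an unadjusted p under 0.01, and the 3 genes most correlated with Prkar2b, Pde4b and Prkar1a. Other genes named are markers, checks of the labels, the rest of a subgroup near 0 or genes chosen after their values were seen. Some results of the pathway lists are not reported here. Alternatives were no block, a covariate from 4 Y-linked genes, pseudocounts of 0.1 and 1, no filter or 5 TPM, median-ratio rescaling, no trend, the highest transcript alone and each litter left out. Python 3.11.15 was used for the other steps. Shared stretches of 31 bases were counted against all GENCODE M21 transcripts.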

Additional observations from a re-analysis of the deposited data

Results flagged for a closer look

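A library was flagged where its gap to the nearest other of its 6, divided by their range, passed Dixon's critical value, which chance does in about 1 in 20 groups. Of 39 sets of values tested, 10 were flagged, and 9 of these were values of litter 5. The sets are not independent, since most flags of litter 5 repeat a low Prkar1b value as gene, as transcripts and as ratios. The number flagged therefore cannot be set against 1 in 20. The Prkaca ratio of litter 3 was -0.87, with the next lowest at -0.31. Prkar1b in ErbB4 FF was 0.733 TPM in litter 5 against 0.115 TPM in the next library, which gave a difference of -1.30 in log2(TPM + 0.5) from its littermate at 0, a value set by the pseudocount and no fold. Its transcript Prkar1b-203 gave 0.731 TPM and -1.30, and Prkar1b-201 gave 0.00242 TPM and -0.00696, a level too low to read. The Prkar1a-201 ratio of litter 5 was -0.24, while the other litters lay at 0.05 or above. The Prkar2b-201 ratio of litter 5 was -2.96, a size set by the pseudocount, as ErbB4 myeKO was next to 0 TPM there and all TPM of the gene was assigned to Prkar2b-202. Prkar2b-202 in ErbB4 FF was highest in litter 5, at 0.0315 TPM.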

How the results depend on the processing

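No pathway gene in a fit passed an adjusted limma p of 0.05 under any alternative, with or without the replicate block (0 in both fits). Of 157 log2 ratios of members and their transcripts recomputed, 6 changed sign. These were Prkar1a-203, Pde4b (-0.02 without litter 2), Prkacb (0.01 without litter 6) and Prkar2b (-0.57 with the highest transcript alone). Leaving out 1 litter gave -0.30 to -0.14 for Prkaca (litters 1 and 3), 0.08 to 0.26 for Prkar2a (litters 2 and 3), 0.04 to 0.29 for Pde4a (litters 3 and 5), 0.0046 to 0.08 for Prkar1a (litters 2 and 5), 0.25 to 0.53 for Prkar2b (litters 2 and 3), 2.18 to 2.86 for Prkar2b-202 and -0.80 to -0.09 for Prkar2b-201, and Prkar2b-202 was 4.22, Prkar2b-201 -0.93 and Pde4a 0.34 with a pseudocount of 0.1. By size of rise among transcripts at an unadjusted limma p under 0.01, Prkar2b-202 ranked 1 with each pseudocount, 4 with the Y-linked covariate and 1 to 6 with 1 litter left out. Littermates were alike in their Y-linked level, so this covariate adds no adjustment for sex beyond the litter block. Prkar2b-202 passed the filter through ErbB4 myeKO (mean 2.91 TPM, against 0.00569 TPM in ErbB4 FF). Nothing is read from these ranks, since this contrast chose the family. Pathway genes at an unadjusted limma p under 0.05 numbered 5, but 0 without the litter block, and 3 with a filter of 5 TPM or without litter 2 or litter 4. Over all genes this count was 721 with the block and 75 without it. In ErbB4 myeKO libraries alone 7 of the 8 neighbouring pairs kept their order, and the median share of Prkar2b-202 was 32.5%, against 0.700% over both genotypes. The table gives no read totals per library, so no counting interval is given for single TPM values.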
